A study of Cricetulus griseus with 6 samples.

Results

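*Ms4a15* and 5 regulators of ferroptosis, *Gpx4*, *Acsl3*, *Acsl4*, *Lpcat3* and *Aifm2*, were examined by symbol among the 27873 entries of an RNA-Seq experiment on CHO-T cells. All 6 genes were found, each as a single entry, and all 6 passed the filter on low values. They were chosen on results of these libraries already at hand: *Ms4a15* was picked from its decrease after *Xbp1* silencing, and the others were placed beside it for their roles in lipid peroxidation. For this reason the differences of the 6 genes between the conditions are described here without a p-value.

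Ferroptosis is a form of cell death in which phospholipids that carry polyunsaturated fatty acids are oxidized in the presence of iron. ACSL4 activates polyunsaturated fatty acids such as arachidonic acid to acyl-CoA, and LPCAT3 places them into lysophospholipids of the membrane, while ACSL3 activates monounsaturated fatty acids that resist oxidation. GPX4, a selenoprotein, reduces phospholipid hydroperoxides with glutathione, and AIFM2, also known as FSP1, regenerates ubiquinol, which traps lipid radicals. MS4A15 is a membrane-spanning protein of the MS4A family that has been described as lowering calcium in the endoplasmic reticulum (ER) and as protecting cells from ferroptosis by changing membrane lipids.

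CHO-T cells derive from the Chinese hamster ovary (CHO) line. Both conditions share a mouse T-cadherin cDNA (labelled Cdh13), brought in by a retrovirus under puromycin selection, and no source says whether the cells are 1 clone. The cells received negative control siRNA (Ctrl, n = 3 libraries) or *Xbp1* siRNA (siXBP1, n = 3 libraries) and were harvested 48 h later. XBP1 is the transcription factor made after IRE1α splices its mRNA in the unfolded protein response. The study silenced *Xbp1* as a way to activate IRE1α, and reported more phosphorylated IRE1α after it. Its RNA-Seq was meant to find how this activation lowers the production of extracellular vesicles. The study's methods name 1 *Xbp1* siRNA sequence. In these libraries loss of *Xbp1*, activation of IRE1α and effects of that siRNA on other transcripts cannot be told apart. The labels do not say how the libraries of a condition relate to cultures, so that the errors and p-values given measure the spread between these libraries. The values are FPKM, numbers of sequenced fragments scaled to the length of the transcript and to the depth of the library, so that they may be compared between genes. *Xbp1* itself was at 26.0, 26.2 and 28.4 FPKM in Ctrl and at 2.18, 2.11 and 1.39 FPKM in siXBP1, as the labels say, and *Cdh13* was at 38.6% of its Ctrl mean.

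The labels give ovary as the tissue. Of 9 mesenchymal markers all were matched, and *Col1a1* was listed at 0 while the others were detected. Their summed level ran from 3325 to 3586 FPKM in Ctrl and from 1900 to 1987 FPKM in siXBP1, with 7 lower and 1 higher of the 8 tested at an adjusted p under 0.05 by limma, which 20.2% of all genes tested passed as lower and 20.2% as higher. With a log2 fold change of 1 or more in size as well, *S100a6* (−1.11) and *Col3a1* (−1.49) were called lower, as were 2.50% of all genes, while 2.69% were called higher. *S100a6* was the largest part of the sum, at 1794 FPKM in Ctrl and 832 FPKM in siXBP1. The marker that rose was *Fn1* (0.83, adjusted p = 2.15e-05, limma). Of 5 epithelial markers 4 were matched, with *Krt18* and *Krt19* listed at 0; *Epcam* (1.32) and *Cdh1* (1.29, from 0.131 to 0.434 FPKM, adjusted p = 0.0489, limma) were called higher, and the sum ran from 1.83 to 2.16 FPKM in Ctrl and from 4.59 to 5.79 FPKM in siXBP1. Granulosa markers (4 of 6 matched, *Fshr* listed at 0) summed to 4.44 to 6.39 FPKM in Ctrl and 5.16 to 7.35 FPKM in siXBP1, and oocyte markers (4 of 4, *Zp3* listed at 0) to 1.99 to 2.41 and 1.45 to 2.19 FPKM. Haematopoietic markers (5 of 5, *Ptprc* and *Cd3e* listed at 0) summed to 5.18 to 6.31 FPKM in Ctrl and 6.99 to 8.80 FPKM in siXBP1. The part of such shifts in the results below was not tested, and in bulk RNA fewer cells of a type and less RNA per cell cannot be told apart.

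*Ms4a15* showed the largest difference of the 6 genes. Its level was 4.77, 9.00 and 4.41 FPKM in Ctrl replicates 1, 2 and 3, and 0.584, 0.530 and 0.471 FPKM in siXBP1 replicates 1, 2 and 3. The lowest Ctrl library thus stood far above the highest siXBP1 library, and within Ctrl replicate 2 stood above the others. The means were 6.06 ± 2.56 FPKM in Ctrl and 0.528 ± 0.0568 FPKM in siXBP1 (SD, n = 3), the latter being 8.72% of the former. The log2 difference, taken after 0.1 was added to each FPKM and therefore too small for genes near 0, was −3.22 with a standard error of 0.276. Without Ctrl replicate 2 it was −2.90.

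In all 6 libraries the FPKM of *Ms4a15* were whole multiples of 1 smallest unit, so that the reads behind it could be given, taking that unit as 1 read. The farthest library lay 0.0317 reads from a whole number. These were 183, 325 and 166 reads in Ctrl replicates 1 to 3 and 23, 20 and 21 reads in siXBP1 replicates 1 to 3. Units of this kind were found for 82.7% of 3065 weakly expressed genes, and they gave depths between 94.0% and 116% of that of Ctrl replicate 1. At the depth of Ctrl replicate 1, the exact 95% Poisson intervals were 157 to 212 reads, 309 to 385 reads and 145 to 197 reads in Ctrl. In siXBP1 they were 14.3 to 33.8, 12.4 to 31.5 and 11.2 to 27.7 reads. The intervals cover counting error only. That of Ctrl replicate 2 lay above the other Ctrl intervals, so the Ctrl libraries differed in *Ms4a15* by more than counting error. The 3 siXBP1 intervals overlapped each other. With so few reads these are wide for their level, so the overlap does not show that siXBP1 libraries varied less than Ctrl libraries.

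**Figure D1:**
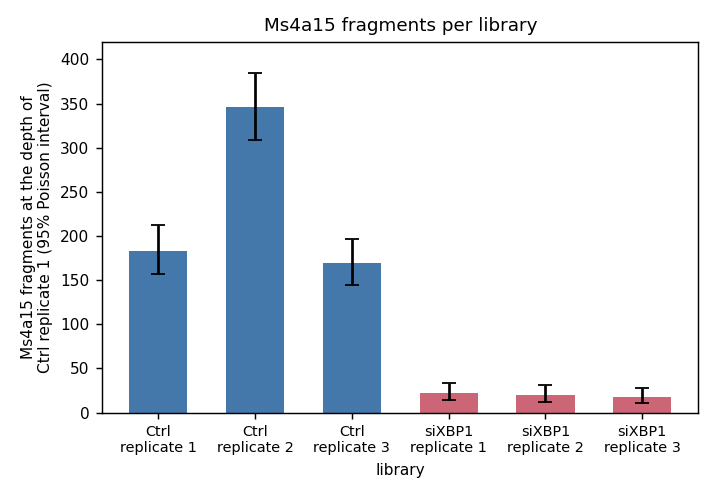
Reads (sequenced fragments) of *Ms4a15* in each of the 6 libraries, scaled to the depth of Ctrl replicate 1 (bars, axis from 0), with exact 95% Poisson intervals for counting error. The Ctrl bars stand at 183, 346 and 169 reads and the siXBP1 bars at 22.5, 20.4 and 18.1 reads.

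No other matched entry named Ms4a was listed above a trace, and whether these entries capture their genes was not tested. Of 22 further symbols of the MS4A family and the related *Tmem176a* and *Tmem176b*, 13 were matched, and 10 were listed at 0 in all libraries. *Ms4a13* had 1 read in Ctrl replicate 2 and 0 elsewhere. *Tmem176a* was at 4.46 ± 1.18 FPKM in Ctrl and 4.69 ± 0.0968 FPKM in siXBP1 (SD, n = 3). *Tmem176b*, by contrast with *Ms4a15*, rose from 5.64 ± 0.850 to 8.38 ± 1.03 FPKM (SD, n = 3, log2 fold change 0.57, adjusted p = 0.0129, limma), without reaching the fold limit for a call. In the RefSeq assembly CriGri-PICRH-1.0 the protein-coding genes next to *Ms4a15* include *Ms4a8* and *Ms4a10*, listed at 0 throughout, and *Ccdc86*, which had 62.7 ± 2.96 FPKM in Ctrl and 59.5 ± 2.80 FPKM in siXBP1 (SD, n = 3, adjusted p = 0.283, limma).

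Levels were compared with those of *Ms4a15* for genes averaging 1 FPKM or more, without entries named by a LOC number. Among these, the genes that followed *Ms4a15* most closely over the 6 libraries were *Brd1*, *Ankrd65*, *Spag9*, *Aacs* and *Plaa*. Their Pearson correlations with it on the log2(FPKM + 0.1) scale were 0.998 for *Brd1* and 0.997 for each of the others, over 9409 genes compared. In all 5 genes the highest of the 6 values was that of Ctrl replicate 2, as in *Ms4a15*. This follows from their choice by correlation over these same libraries and is no further likeness. The size of the difference was not shared: *Brd1* was at 82.5% of its Ctrl mean in siXBP1, *Ankrd65* at 51.2% and *Aacs* at 66.6%, against 8.72% for *Ms4a15*. With 6 libraries in 2 conditions such values are a description, since 1046 of the genes compared had a correlation of at least 0.95.

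*Gpx4* was by far the most abundant of the 6 genes. It had 393, 347 and 330 FPKM in Ctrl and 245, 232 and 238 FPKM in siXBP1. The lowest Ctrl library lay above the highest siXBP1 library. The mean was 357 ± 32.7 FPKM in Ctrl and 238 ± 6.43 FPKM in siXBP1 (SD, n = 3), or 66.8% of Ctrl, with a log2 difference of −0.58 (standard error 0.063). Among the 1063 genes with a mean of at least 100 FPKM the median log2 fold change was −0.09, and 90 of them had a lower value than *Gpx4*. After quantile normalization, the difference in *Gpx4* was −0.45.

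*Aifm2*, the other member of the peroxide defence, had 8.16, 8.53 and 7.95 FPKM in Ctrl and 9.03, 8.32 and 8.80 FPKM in siXBP1. The conditions overlapped. The mean was 8.21 ± 0.296 FPKM in Ctrl and 8.72 ± 0.362 FPKM in siXBP1 (SD, n = 3), a log2 difference of 0.09 with a standard error of 0.0715. Per length, *Gpx4* mRNA thus remained well above that of *Aifm2* in every library.

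*Acsl4* had 25.6, 28.8 and 29.4 FPKM in Ctrl and 16.8, 15.2 and 17.1 FPKM in siXBP1. No siXBP1 library reached the lowest Ctrl library. The mean was 27.9 ± 2.04 FPKM in Ctrl and 16.4 ± 1.01 FPKM in siXBP1 (SD, n = 3), or 58.7% of Ctrl, with a log2 difference of −0.76 (standard error 0.0732). *Acsl3* had 4.25, 5.65 and 5.68 FPKM in Ctrl and 5.94, 6.24 and 5.21 FPKM in siXBP1, and the conditions overlapped. Its log2 difference was 0.16 with a standard error of 0.138, and 0.03 without Ctrl replicate 1, the library with the lowest value. In each library *Acsl4* was the more abundant of the pair. The ratio of *Acsl4* to *Acsl3* was 6.02, 5.09 and 5.17 in Ctrl and 2.83, 2.44 and 3.27 in siXBP1.

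*Lpcat3*, which acts on the acyl-CoA that ACSL4 makes, differed in the opposite direction. Its level was 42.8, 39.8 and 41.5 FPKM in Ctrl and 49.8, 54.6 and 51.3 FPKM in siXBP1, without overlap. The mean was 41.4 ± 1.51 FPKM in Ctrl and 51.9 ± 2.46 FPKM in siXBP1 (SD, n = 3), or 125% of Ctrl, with a log2 difference of 0.33 (standard error 0.0495). The ratio of *Acsl4* to *Lpcat3* was 0.597, 0.722 and 0.708 in Ctrl and 0.338, 0.279 and 0.332 in siXBP1. By contrast, the ratio of *Gpx4* to *Acsl4*, both lower in siXBP1, was 15.4, 12.1 and 11.2 in Ctrl and 14.5, 15.2 and 14.0 in siXBP1, with overlapping conditions.

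**Figure D2:**
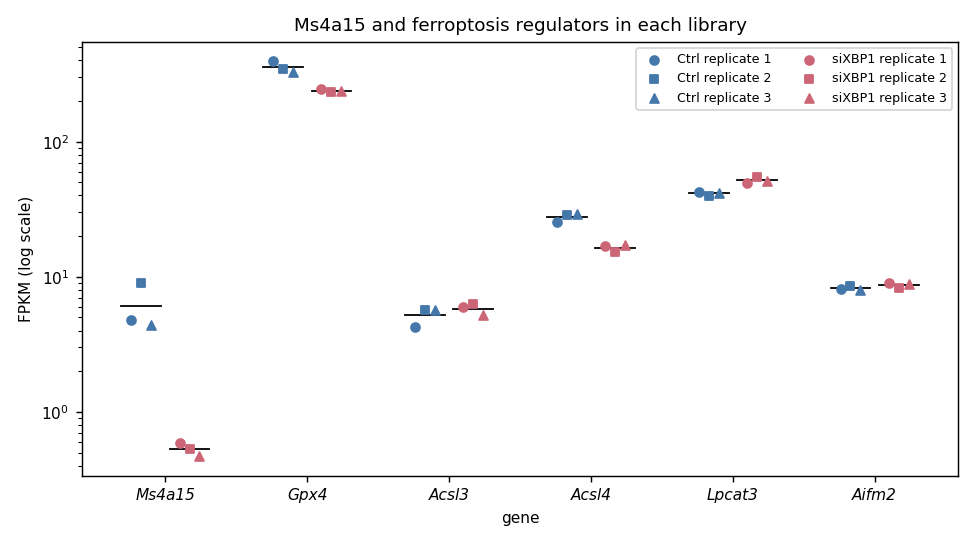
FPKM of the 6 genes (log axis) in each library, with circles, squares and triangles for replicates 1, 2 and 3, blue for Ctrl, red for siXBP1 and a black line at each mean. *Ms4a15*, *Gpx4* and *Acsl4* are lower and *Lpcat3* is higher in siXBP1 without overlap, while *Acsl3* and *Aifm2* overlap.

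Of the 6 genes, 3 were lower and 1 was higher in siXBP1 without overlap between the conditions. Over all 14361 genes tested, 25.8% were lower and 26.1% higher without overlap. Calls required both an adjusted p under 0.05 and a log2 fold change of 1 or more in either direction. *Ms4a15* alone of the 6 passed these limits, which 2.50% of all genes tested passed as lower and 2.69% as higher, and nothing is read from these counts, since the same contrast led to the choice. In Ctrl the order of levels was *Gpx4*, *Lpcat3*, *Acsl4*, *Aifm2*, *Ms4a15* and *Acsl3* by the mean, and the range of *Ms4a15* overlapped both that of *Aifm2* and that of *Acsl3*. In Ctrl replicate 2 *Ms4a15* stood above *Aifm2*. In siXBP1 *Ms4a15* was the lowest of the 6, below *Acsl3* in every library. Among the genes tested, the Ctrl mean of *Gpx4* stood at percentile 98.4, that of *Lpcat3* at 80.1, of *Acsl4* at 71.8, of *Aifm2* at 44.6, of *Ms4a15* at 39.4 and of *Acsl3* at 36.9.

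Genes beside the members in the RefSeq assembly were looked at as well, a step added after the values of the 6 genes had been seen and resting on gene order alone, with 3 protein-coding genes on each side. Of 35 neighbours matched 24 were tested, and 5 were higher and 5 lower at an adjusted p under 0.05. With 20.2% of all genes passing in each direction, the values of single neighbours are given as a description only. *Tmem164* and *Ammecr1*, on one side of *Acsl4*, fell, with *Ammecr1* going from 10.2 ± 1.19 to 6.11 ± 0.330 FPKM (SD, n = 3, log2 fold change −0.72, adjusted p = 0.00120, limma) and *Tmem164* to 73.3% of its Ctrl mean (log2 fold change −0.44, adjusted p = 0.00529, limma). TMEM164 has been described as an acyltransferase that adds arachidonic acid to ether phospholipids. The complement protease genes *C1s*, *C1r* and *C1rl*, which lie beside *Lpcat3*, rose, with log2 fold changes of 0.72, 0.78 and 0.51 (adjusted p = 6.38e-06, 7.25e-06 and 0.00980, limma), whereas *Emg1* and *Phb2* on the other side had −0.13 and −0.06 (adjusted p = 0.0878 and 0.355, limma). Nearest to *Gpx4*, *Polr2e* and *Sbno2* had overlapping conditions, with log2 fold changes of −0.09 and 0.08 (adjusted p = 0.422 and 0.462, limma). Farther out, *Stk11* fell by 0.29, and *Abca7* and *Cbarp* rose by 0.44 and 0.43 (adjusted p = 0.00279, 0.00984 and 0.0227, limma). Near *Aifm2*, *Sar1a* and *Ppa1* fell by 0.40 and 0.14 (adjusted p = 2.11e-04 and 0.0210, limma), and *Farsb* and *Mogat1*, near *Acsl3*, had 0.11 and 0.63 (adjusted p = 0.0933 and 0.208, limma).

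The families of *Acsl4* and *Lpcat3* were then described from lists of enzymes with the same kind of activity. Besides *Acsl3* and *Acsl4*, 9 acyl-CoA synthetases and fatty acid transporters were matched and 6 tested. Of these 2 rose and 1 fell at an adjusted p under 0.05, against 20.2% of all genes in each direction, and 0 were called. *Acsl5*, the most abundant of them, rose from 177 ± 5.70 to 224 ± 6.37 FPKM (SD, n = 3, log2 fold change 0.33, adjusted p = 3.60e-04, limma), and *Slc27a1* rose by 0.45 on that scale (adjusted p = 0.00228, limma). *Acsl1* fell from 9.07 ± 0.318 to 6.78 ± 0.774 FPKM (SD, n = 3, log2 fold change −0.42, adjusted p = 0.0109, limma). *Acsl6* and *Slc27a4* had 0.00 and 0.07 (adjusted p = 0.997 and 0.527, limma). Summed over the 5 genes *Acsl1*, *Acsl3*, *Acsl4*, *Acsl5* and *Acsl6*, the share of *Acsl4* was 11.4%, 13.1% and 12.9% in Ctrl and 6.49%, 5.81% and 6.81% in siXBP1. That of *Acsl5* was 79.1% ± 1.68 in Ctrl and 86.9% ± 0.421 in siXBP1 (SD, n = 3), and that of *Acsl3* 2.32% ± 0.372 and 2.25% ± 0.154 (SD, n = 3).

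Of 13 lysophospholipid acyltransferases other than *Lpcat3*, 12 were matched and 10 tested, with 4 higher and 0 lower at an adjusted p under 0.05, against 20.2% of all genes in each direction, and 0 called. Their median was 0.12 on the log2 scale, against 0.006 for all genes tested. *Mboat7*, which places arachidonic acid into lysophosphatidylinositol, and *Agpat2*, which makes phosphatidic acid, each rose by 0.63 (adjusted p = 0.00101 and 0.00159, limma). *Agpat4* had 0.30 and *Lpcat4* 0.17 (adjusted p = 0.0246 and 0.0281, limma). *Lclat1*, *Agpat5*, *Agpat1*, *Agpat3*, *Lpgat1* and *Mboat1* had log2 fold changes between −0.31 and 0.20, with adjusted p from 0.0540 to 0.356 (limma). *Lpcat2* and *Mboat2* were listed at 0 in every library.

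**Figure D3:**
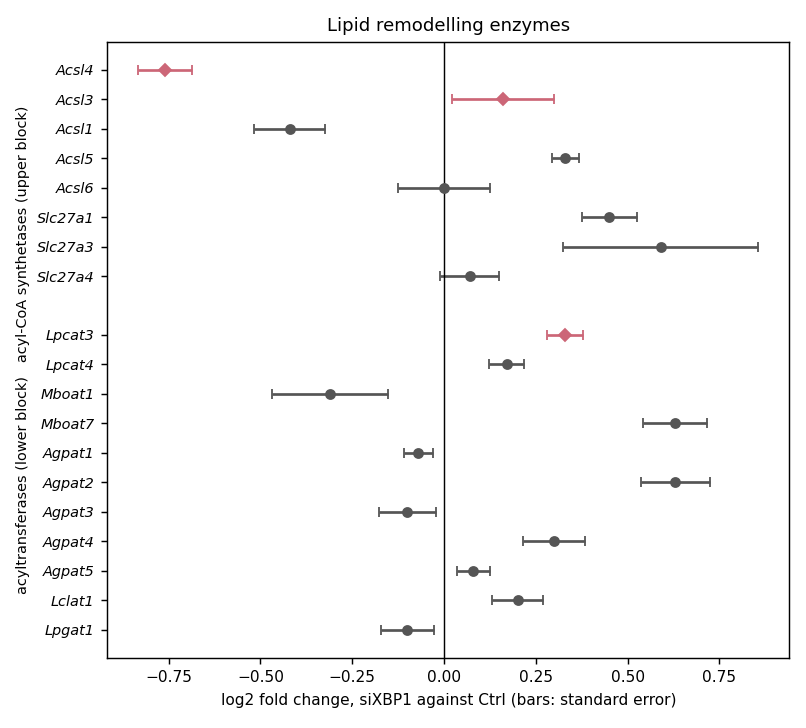
Log2 fold change of siXBP1 against Ctrl for acyl-CoA synthetases (upper block) and acyltransferases (lower block), with bars for the standard error (n = 3 libraries a condition), red diamonds for *Acsl4*, *Acsl3* and *Lpcat3* and grey circles for the other tested genes. *Acsl4* lies lowest, at −0.76, while *Lpcat3* lies at 0.33, between *Mboat7* at 0.63 and *Mboat1* at −0.31.

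Over 14 lists of other genes that act in lipid peroxidation or against it, 161 of 189 symbols were matched and 131 genes tested. Of these, 1 was called higher and 9 were called lower, and at an adjusted p under 0.05 without the fold limit 33 were higher and 37 lower. Over all genes tested the shares were 2.69% called higher and 2.50% called lower, and 20.2% in each direction without the fold limit. The median of their log2 fold changes was −0.06.

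The supply of GPX4 was described by glutathione and selenoprotein genes. All 9 genes of cystine uptake and glutathione were tested; 3 were called lower and 0 higher, and 6 were lower and 1 higher at an adjusted p under 0.05. *Gclm*, a subunit of the enzyme that starts glutathione synthesis, fell from 155 ± 3.94 to 70.8 ± 1.10 FPKM (SD, n = 3, log2 fold change −1.13, adjusted p = 1.59e-06, limma). *Gss*, glutathione synthetase, fell from 563 ± 4.19 to 278 ± 7.06 FPKM (SD, n = 3, log2 fold change −1.02), and this call was lost after quantile normalization, at −0.79. *Slc7a11*, the cystine transporter, fell from 31.3 ± 3.92 to 14.9 ± 0.840 FPKM (SD, n = 3, log2 fold change −1.06, and −0.97 without Ctrl replicate 3), whereas its partner *Slc3a2* had 0.15 (adjusted p = 0.0171, limma), and 0.42 after quantile normalization. Of 9 selenoprotein synthesis genes tested 0 were called, and 4 were lower and 1 higher at an adjusted p under 0.05. *Sars* and *Trnau1ap*, the most abundant, each had −0.18 (adjusted p = 0.00183 and 0.0184, limma), but after quantile normalization they had −0.03 and −0.12 (adjusted p = 0.372 and 0.0596, limma). *Sephs2*, which makes the selenium donor and was singled out after its values were seen, fell from 66.5 ± 2.66 to 36.4 ± 1.78 FPKM (SD, n = 3, log2 fold change −0.87, adjusted p = 1.90e-05, limma).

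The supply of AIFM2 was described by ubiquinone genes, of which 15 were tested, with 1 called in each direction, and 3 higher and 1 lower at an adjusted p under 0.05. *Stard7*, which carries ubiquinone between membranes, fell from 39.7 ± 2.01 to 19.6 ± 0.415 FPKM (SD, n = 3, log2 fold change −1.01, adjusted p = 9.47e-06, limma). It stood at the fold limit and was no longer called without Ctrl replicate 2, at −0.97, without siXBP1 replicate 3, with a pseudocount of 1 or after quantile normalization, at −0.98 in each of the last pair. *Coq8a*, an atypical kinase of ubiquinone synthesis, rose from 1.06 ± 0.343 to 2.32 ± 0.443 FPKM (SD, n = 3, log2 fold change 1.10, adjusted p = 0.0142, limma), on 30, 26 and 15 reads in Ctrl and 49, 64 and 55 reads in siXBP1. Without Ctrl replicate 3 its log2 fold change was 0.83 and without siXBP1 replicate 2 it was 0.96, and neither was called, nor was it called with a pseudocount of 1, at 0.70, or after quantile normalization, at 0.99. *Coq3* and *Dhodh*, the most abundant, had −0.08 and −0.10 (adjusted p = 0.392 and 0.238, limma).

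A further list held 15 tested genes of tetrahydrobiopterin, vitamin K, peroxide and sterol metabolism. Of these 1 was called lower, 0 were called higher, and 8 were higher and 4 lower at an adjusted p under 0.05. The counts do not sort genes that act against peroxidation from others. The sterol genes *Dhcr7* and *Sc5d*, singled out after their values were seen, had log2 fold changes of 0.39 and −0.19 (adjusted p = 0.00168 and 0.142, limma). *Nqo1*, a quinone reductase, fell from 10.6 ± 0.762 to 3.16 ± 0.243 FPKM (SD, n = 3, log2 fold change −1.71, adjusted p = 1.86e-05, limma). *Txnrd1*, thioredoxin reductase, had −0.73 and *Gpx1*, another glutathione peroxidase, 0.25 (adjusted p = 7.28e-06 and 0.0192, limma), so that *Gpx1* differed in direction from *Gpx4*. After quantile normalization these were −0.42 and 0.41. *Gch1* and *Spr*, enzymes at the start and the end of tetrahydrobiopterin synthesis that were singled out after their values were seen, had 0.48 and 0.71 (adjusted p = 0.00186 and 1.25e-04, limma).

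Among the substrates of peroxidation, 10 of 16 symbols of fatty acid desaturation and elongation were matched and 6 genes tested. At an adjusted p under 0.05, 3 were higher and 0 lower, with 0 called. *Fads2*, *Scd5*, *Elovl2* and *Elovl3* were listed at 0, and *Fads1* and *Scd1* were not matched. The 3 higher, named after their values were seen, were *Fads3*, the only desaturase tested, *Elovl7* and *Elovl4*. Their log2 fold changes were 0.87, 0.53 and 0.44 (adjusted p = 2.77e-04, 0.0134 and 0.0202, limma). *Elovl5* and *Elovl1* had 0.13 and −0.20 (adjusted p = 0.0877 and 0.0543, limma). Of 5 ether lipid genes tested 1 was higher and 3 were lower, with 0 called. *Gnpat*, which starts ether lipid synthesis in peroxisomes, had −0.31 and *Far1* 0.05 (adjusted p = 0.00308 and 0.690, limma). Of 8 phospholipase and hydrolase genes tested 1 was higher and 4 were lower, with 0 called, and *Pafah1b2* and *Pafah1b3* had −0.44 and 0.20 (adjusted p = 7.47e-04 and 0.0371, limma).

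Of 5 lipid peroxidation enzymes tested, *Ptgs2*, which encodes the prostaglandin synthase COX2, was called lower and 0 were called higher, with 1 in each direction at an adjusted p under 0.05. It fell from 206 ± 1.03 to 79.0 ± 4.34 FPKM (SD, n = 3, log2 fold change −1.38, adjusted p = 1.65e-06, limma). *Pebp1*, a scaffold of lipoxygenases, had −0.09 (adjusted p = 0.0661, limma), and the lipoxygenase genes *Alox5* and *Alox15* were listed at 0. *Aloxe3*, a lipoxygenase of the epidermis singled out after its values were seen, rose from 6.09 ± 0.604 to 7.68 ± 0.541 FPKM (SD, n = 3, log2 fold change 0.33, adjusted p = 0.0338, limma). In 15 iron handling genes tested, *Fth1*, the ferritin heavy chain, and *Hmox1*, heme oxygenase, were called lower, with log2 fold changes of −1.81 and −1.79 (adjusted p = 2.41e-07 for each, limma), and 0 were called higher, with 2 higher and 5 lower at an adjusted p under 0.05.

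The ER calcium store, on which MS4A15 has been described to act, was represented by 15 tested genes, with 0 called and 4 in each direction at an adjusted p under 0.05. *Calr*, the calcium-binding chaperone calreticulin, rose from 607 ± 7.13 to 717 ± 16.7 FPKM (SD, n = 3, log2 fold change 0.24, adjusted p = 5.51e-04, limma), and *Tmbim6* had −0.04 (adjusted p = 0.468, limma). After quantile normalization *Calr* had 0.57 and *Tmbim6* turned to 0.13 (adjusted p = 3.59e-06 and 0.00880, limma). Of 11 transcription factors tested, 1 was called lower and 0 higher, with 4 lower and 1 higher at an adjusted p under 0.05. *Pparg*, a nuclear receptor that responds to fatty acids, fell from 33.1 ± 0.386 to 15.9 ± 0.962 FPKM (SD, n = 3, log2 fold change −1.05, adjusted p = 1.24e-05, limma). *Atf4* and *Nfe2l1* had −0.06 and −0.35 (adjusted p = 0.205 and 1.81e-04, limma), and after quantile normalization *Atf4* turned to 0.23 and *Nfe2l1* had −0.23 (adjusted p = 6.52e-04 and 6.19e-04, limma).

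**Figure D4:**
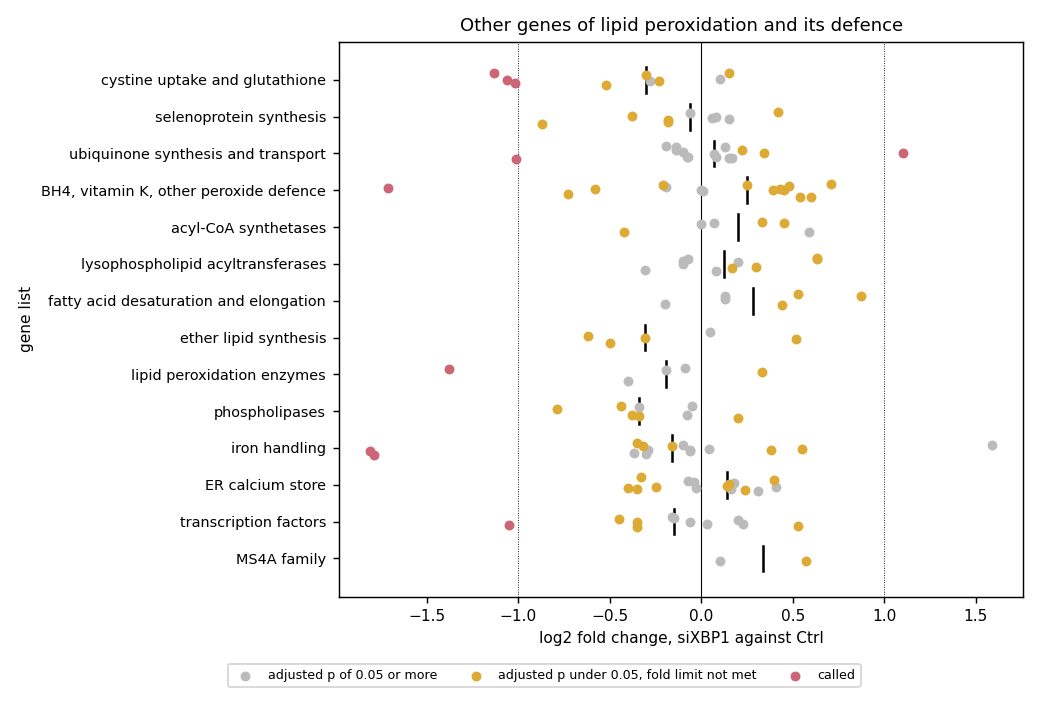
Log2 fold change of siXBP1 against Ctrl for each tested gene of the 14 lists (points, with a black line at the median of each list and dotted lines at the fold limits), coloured by whether it was called, passed an adjusted p of 0.05 alone, or did neither. The 9 genes called lower lie in the lists of glutathione, ubiquinone, peroxide defence, peroxidation enzymes, iron and transcription factors, and the 1 called higher is *Coq8a*. The uncalled point at 1.59 is the entry named *Ftl*, at 0.101 ± 0.0875 FPKM in Ctrl and 0.585 ± 0.520 FPKM in siXBP1 (SD, n = 3).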

How the data were processed

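Stranded mRNA libraries of CHO-T cells, 3 a condition, were compared. The authors deposited FPKM for each library. The labels name HISAT2 2.1.0 and Cuffdiff 2.2.1, and the genome build and annotation are not given in the sources used here, so no coordinates are given. DESeq2 was not used, since FPKM are not counts. In its place limma 3.58.1 in R 4.3.3 (lmFit, eBayes with an intensity trend) was run on log2(FPKM + 0.1) for 14361 genes, those averaging 0.1 FPKM or more, with Benjamini-Hochberg adjustment over all of them. Fold limits are those of the study. Read numbers behind *Ms4a15* and *Coq8a* were taken from the multiples on which their FPKM lie, accepted within 0.03 reads plus 0.1% of the number. The fit and this step were tested on simulated data. Other steps ran in Python 3.11.15 (scipy 1.17.1). Gene order came from RefSeq.

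The 6 members and all gene lists were chosen with earlier results of these data known. Named genes were the members, *Xbp1* and *Cdh13*, in each list the called genes (at most 4) and the 2 most abundant, all genes of the MS4A, acyl-CoA synthetase and acyltransferase lists averaging 1 FPKM or more, and the 5 genes most like *Ms4a15*; others are said to be chosen later. The settings varied were the pseudocount (1 and 0.01), the filter (1 FPKM or none) and the normalization (median-ratio scaling, quantile). Fits without the trend, without the fold limit, with the replicate number as a block and without each library were also run.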

Additional observations from a re-analysis of the deposited data

How the results depend on the processing

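The log2 difference of *Ms4a15* was −2.15 with a pseudocount of 1, which shrinks weakly expressed genes, and that of *Gpx4* was −0.45 after quantile normalization. Under every other alternative the differences of the 6 genes moved by less than 1 SD between libraries and kept their sign. Leaving out 1 library at a time, they ran from −3.41 to −2.90 for *Ms4a15*, −0.63 to −0.51 for *Gpx4*, 0.03 to 0.24 for *Acsl3*, −0.83 to −0.71 for *Acsl4*, 0.29 to 0.36 for *Lpcat3* and 0.06 to 0.12 for *Aifm2*. Over all genes, 386 were called higher and 359 lower, which became 114 and 205 with a pseudocount of 1, 2898 and 2904 without the fold limit, 242 higher under the stricter filter (1 FPKM), where fewer genes were tested, and 329 to 380 and 346 to 369 with 1 library left out. In the 14 lists, the genes called higher were 0 with a pseudocount of 1 and after quantile normalization, 0 to 1 with 1 library left out, and 33 without the fold limit; those called lower were 7 after quantile normalization, 8 with a pseudocount of 1, 8 to 9 with 1 library left out and 37 without the fold limit. Blocking on the replicate number gave 2 genes of the lists called higher, *Coq8a* and the entry named *Ftl* while log2 differences are the same with and without it by construction. The block was not used otherwise, because the numbers mark no stated pairing and deviations of libraries with the same number correlated across genes with r of −0.0289, −0.0265 and −0.0124. The *Ftl* entry lies near 0 although ferritin light chain is made by nearly all cells, and whether it captures that gene was not tested. Of 728 values for 52 other named genes, 718 stayed on their side of the call limits and 10, of *Coq8a*, *Stard7*, *Gss* and *Slc7a11*, were no longer called. Among genes that were not called, 5 values changed sign (as rounded to 2 decimals, leaving out *Acsl6*, which stood at 0.00 and took both signs): *Atf4* (0.23), *Tmbim6* (0.13) and *Pebp1* (0.02) after quantile normalization, *Far1* (−0.02) without Ctrl replicate 1 and *Tmem176a* (−0.03) without Ctrl replicate 3. Quantile normalization also brought *Lclat1* (0.24) and *Elovl5* (0.19) under an adjusted p of 0.05 (0.0295 and 0.0186, limma), and it left the median of all genes at 0.016. Depth limits *Ms4a15* in siXBP1, where each library holds at most 23 reads.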
